A study of Medicago sativa with 12 samples.

Results

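Respiratory burst oxidase homologs (Rboh) are the NADPH oxidases of plants, and they were followed here in leaves of alfalfa (Medicago sativa L. cv. zhongmu 1#), a forage legume. A gene model was taken as a member when its description in the deposited table contains the words respiratory burst oxidase, and the models were then grouped by the homolog letter of that description. The rule found 39 of 164632 gene models, in 6 lettered homologs (A, B, C, D, E and H) and a group without a letter, described as respiratory burst oxidase-like protein and written Rboh-like here. Leaf RNA was sequenced in 12 libraries, 3 biological replicates for each of 4 groups. All plants received Hoagland nutrient solution, alone in the control group (CK), with melatonin in M, with 150 mM NaCl in S, and with both additions in SM. The salt dose comes from the study's methods, and 50 µM is the melatonin dose that the study's text names as selected for later experiments. Whether the plants sampled for RNA grew in pots or in hydroponics and the time at which their leaves were taken are not given in the sources used here. CK and M are the plants without salt, S and SM the plants with it. The design asks how melatonin acts on plants with and without salt and how salt acts with and without melatonin.

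An Rboh protein sits in the plasma membrane and passes electrons from NADPH inside the cell to oxygen outside it. The superoxide that forms is turned into hydrogen peroxide, a signal in defence, stomatal closure, salt responses and growth. Calcium binds the N-terminal region of the protein, and calcium-dependent kinases, CBL-interacting kinases, SnRK2 kinases, receptor-like cytoplasmic kinases and ROP GTPases switch the enzyme on, so that much of its control acts on the protein and not on its transcript. In Arabidopsis RbohD is the main source of the oxidative burst in leaves, RbohC acts in root hair growth, and RbohH acts in pollen tubes. In common bean an RbohB is needed for root nodules. The letters in the table are those of the annotation, taken from Medicago truncatula and for a pair of RbohA models from chickpea, and a shared letter does not show a shared role in alfalfa.

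The table names 4 copies of each chromosome, and the members lie on 24 of these copies. RbohB has 9 models, 4 on the copies of chromosome 7 and 5 on those of chromosome 1. RbohA has 8, of which 4 lie on the copies of chromosome 4 and the rest are models on chromosomes 3 and 6. The 4 RbohC models and the 7 RbohD models share chromosome 3, where on every copy an RbohD model lies next to RbohC, with no model between them and gaps of 6.47 to 23.06 kb. RbohE has 4 models on chromosome 2, RbohH 4 on chromosome 7, and Rboh-like 3 on chromosome 8. In the KEGG column 35 of the 39 members carry the ortholog number of the family, and the 4 RbohH models do not. Copies of a gene can be near-identical in sequence, and how reads that fit several copies were assigned is not given in the sources used here. The split of reads among copies is therefore uncertain, and sums over the copies of a homolog were taken as the main measure.

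**Figure D1:**
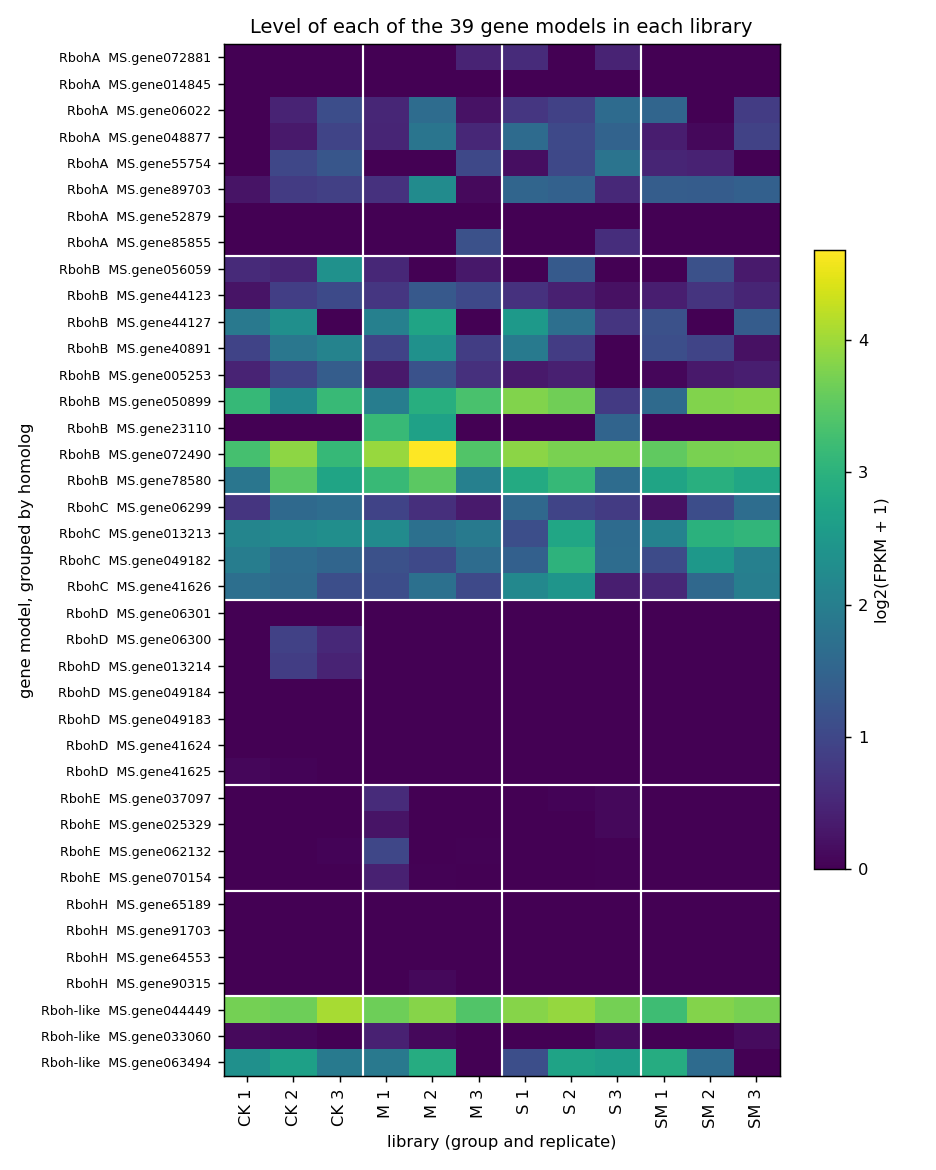
Level of each of the 39 models (rows, grouped by homolog) in each of the 12 libraries (columns), as log2(FPKM + 1), with white lines between homologs and groups. MS.gene072490, MS.gene050899 and MS.gene78580 of RbohB and MS.gene044449 of Rboh-like have the highest means, RbohC is present in every library, and the RbohD, RbohE and RbohH rows are at or near 0 in most libraries.

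Levels are given in FPKM, the number of fragments scaled to transcript length and to the mapped reads of the library. Of the 39 models 13 reached a mean of at least 1 FPKM over the 12 libraries and were tested, and 26 did not. Over the whole series 50931 of 164632 models reached that mean, so a minority passed there as well. A level of 0 was listed in every library for 8 models, in some libraries for 21 and in no library for 10. The 13 tested models comprise 6 of RbohB, 4 of RbohC, 2 of Rboh-like and 1 of RbohA. The summed level of all members lay between 43.8 and 93.8 FPKM per library, with a mean of 60.4 ± 9.58 for CK, 67.1 ± 25.2 for M, 65.7 ± 15.9 for S and 59.0 ± 12.2 for SM (SD, n = 3). These are bulk samples, in which fewer cells of a type and less RNA per cell cannot be told apart.

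RbohB led this total and held 37.0 to 63.4% of it in a library. Its mean sum was 33.4 FPKM, against 15.8 for Rboh-like, 9.60 for RbohC and 3.94 for RbohA, and under 1 FPKM for RbohD, RbohE and RbohH. RbohB was above Rboh-like in 12 of 12 libraries, although their ranges overlap (17.9 to 59.5 against 9.65 to 19.8 FPKM). Rboh-like was above RbohC in 11 libraries, SM replicate 3 being the exception, and RbohC above RbohA in 10, with M replicate 2 and S replicate 3 the other way. RbohA was above RbohD in all 12. The order among RbohD, RbohE and RbohH changed from library to library, so they are not ranked.

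**Figure D2:**
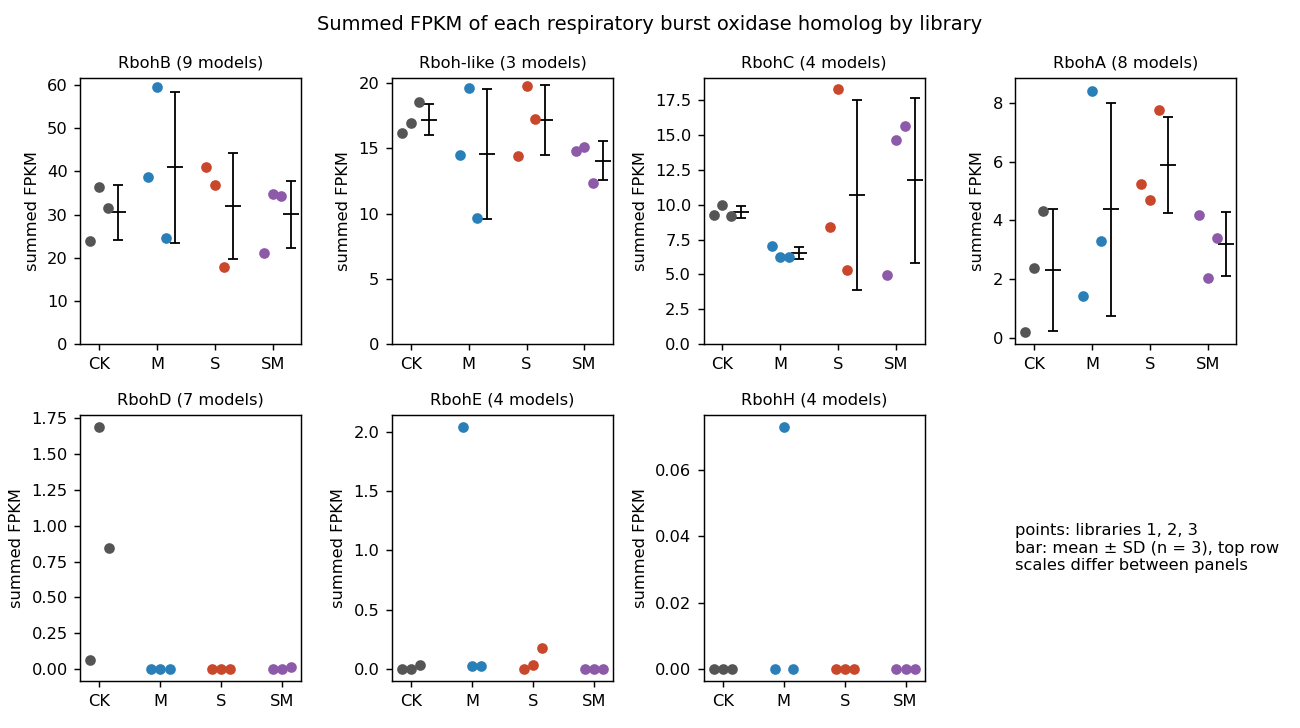
Summed FPKM of each homolog (vertical axes, with scales that differ between panels) in CK, M, S and SM, with points for libraries 1 to 3 and, for the 4 tested homologs, bars for the mean ± SD (n = 3). The groups of RbohB and Rboh-like overlap widely except for SM against CK in Rboh-like, the M libraries of RbohC lie below its CK libraries, and RbohD has values above 0.1 FPKM in CK replicates 2 and 3 and in no other library.

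No homolog passed the test in any comparison. The test was edgeR's quasi-likelihood test of the estimated counts, with Benjamini-Hochberg adjustment over a table of 15402 annotation sums in which the members were merged by homolog, with a call at an adjusted p below 0.05. Of the 28 tests of the 4 homologs over 7 contrasts, none was called (edgeR), none had an unadjusted p below 0.05, and the lowest adjusted p was 0.332. The alternatives, DESeq2 among them, called none of them either. The background differs between contrasts. Of all annotation sums, 12.2% were called for S against CK, 7.31% for SM against CK, 0% for M against CK as for SM against S, and 22.8% for the mean effect of salt over both melatonin states. For the mean effect of melatonin over both salt states and for the interaction the background was 0%. A homolog left uncalled in M against CK or SM against S is thus like every other annotation, and such a result does not show that its level stayed the same. The intervals below give the changes that remain possible.

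RbohB, the most abundant homolog, had 23.8, 36.4 and 31.5 FPKM in CK, 38.7, 59.5 and 24.6 in M, 40.9, 36.9 and 17.9 in S, and 21.0, 34.8 and 34.3 in SM. Its groups overlapped in every comparison, and the highest and the second highest library, M replicate 2 and S replicate 1, belong to different groups. The log2 fold change was 0.38 ± 0.34 in M against CK (SE, 95% interval -0.38 to 1.13, adjusted p = 0.891 by edgeR), 0.06 ± 0.34 in S against CK (-0.69 to 0.81, adjusted p = 0.931), -0.06 ± 0.34 in SM against CK (-0.81 to 0.70, adjusted p = 0.948) and -0.12 ± 0.34 in SM against S (-0.87 to 0.64, adjusted p = 0.956). The upper bound in M against CK corresponds to a 2.19-fold higher level and the lower bound to a 1.30-fold lower level.

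RbohB was lower on chromosome 1 than on chromosome 7 in every library. On chromosome 7 the summed level was 19.2, 27.5 and 21.4 FPKM in CK, 33.4, 46.9 and 21.9 in M, 32.6, 31.7 and 17.1 in S, and 18.3, 31.8 and 31.6 in SM. On chromosome 1 it was 4.66, 8.82 and 10.1 in CK, 5.35, 12.5 and 2.65 in M, 8.35, 5.25 and 0.803 in S, and 2.77, 3.05 and 2.70 in SM. The SM libraries of chromosome 1 thus all lay below its CK libraries, whereas on chromosome 7 the SM and CK libraries overlapped. Tested apart, a split chosen after the data were seen, chromosome 1 had a log2 fold change of -1.63 ± 0.75 in SM against CK (95% interval -3.29 to 0.03, adjusted p = 0.226 by edgeR) and chromosome 7 one of 0.21 ± 0.31 (-0.48 to 0.89, adjusted p = 0.746). In M against CK the values were -0.42 ± 0.73 on chromosome 1 (adjusted p = 0.958) and 0.55 ± 0.31 on chromosome 7 (adjusted p = 0.779). The difference between the chromosomes was not tested.

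**Figure D3:**
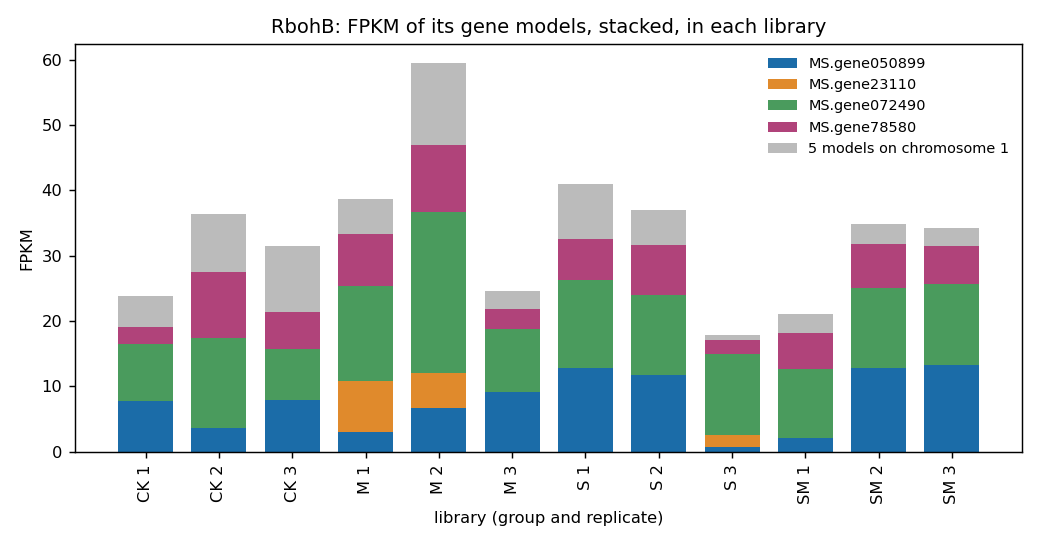
FPKM of the RbohB models in each of the 12 libraries, stacked, with a colour for each of the 4 models on the copies of chromosome 7 and grey for the 5 models on chromosome 1. MS.gene23110 appears in M replicates 1 and 2 and in S replicate 3 only.

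Within chromosome 7 the share of the 4 copies shifted between libraries of the same group. MS.gene072490 (chromosome 7.3, 3761711 to 3767794) held 36.5 to 72.5% of the chromosome 7 level, MS.gene78580 (chromosome 7.4, 3594414 to 3599612) 12.5 to 37.0%, and MS.gene050899 (chromosome 7.1, 3253475 to 3259544) 4.32 to 42.0%. MS.gene050899 had 7.77, 3.65 and 7.93 FPKM in CK, 2.97, 6.67 and 9.14 in M, 12.8, 11.7 and 0.739 in S, and 2.06, 12.8 and 13.2 in SM. S replicate 3 and SM replicate 1 were thus far below the other libraries of their groups for this copy. MS.gene072490 was steadier under salt, at 12.3 to 13.5 FPKM in S and 10.6 to 12.5 in SM, and had 8.80, 13.7 and 7.81 in CK and 14.6, 24.6 and 9.65 in M. Its log2 fold change in M against CK was 0.63 ± 0.33 (unadjusted p = 0.083, adjusted p = 0.940 by edgeR over 50931 models).

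MS.gene23110 (chromosome 7.2, 4011656 to 4017742), the fourth copy, had reads in 3 libraries only. It was at 0 in CK, at 7.92 and 5.40 FPKM in M replicates 1 and 2 and 0 in replicate 3, at 1.83 FPKM in S replicate 3 and 0 in the other S libraries, and at 0 in SM. The counts behind the M values were 1358, 864 and 0. Against the floor of 3 counts per library, the mean of M was at least 244-fold higher than CK, and at least 149-fold higher without M replicate 1. That model passed the filter through those libraries, so a difference between groups was built into its selection. The unadjusted p in M against CK was 0.042 and the adjusted p 0.884 (edgeR), and in the interaction they were 0.016 and 0.739. DESeq2, the tool that the study's methods name, called the same model in M against CK (adjusted p = 2.14e-07), S against CK (1.99e-06), SM against S (5.98e-06) and the interaction (3.10e-13), where it called 1.68, 10.6, 1.60 and 1.89% of all models. In M replicate 3 and in 2 of the 3 S libraries the model has no reads, so libraries of the same group differ. Why DESeq2 and edgeR differ for this model was not tested. The sum over the 4 copies of chromosome 7, in which reads assigned to any of them count alike, had the log2 fold change of 0.55 given above.

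Of the 5 RbohB models on chromosome 1, a pair passed the filter. MS.gene44127 (chromosome 1.3, 58838163 to 58843535) had 2.71, 4.05 and 0 FPKM in CK, 3.08, 5.65 and 0 in M, 4.69, 2.28 and 0.642 in S, and 1.23, 0 and 1.56 in SM. MS.gene40891 (chromosome 1.4, 67341232 to 67347068) had 0.930, 2.63 and 3.29 in CK, 0.928, 4.13 and 0.798 in M, 2.82, 0.787 and 0 in S, and 1.18, 0.943 and 0.159 in SM. A level of 0 beside several FPKM in a sister library of the same group occurred for both. MS.gene056059, MS.gene44123 and MS.gene005253 had means of 0.723, 0.643 and 0.516 FPKM and were not tested. On chromosomes 1.3 and 1.4 a pair of RbohB models lie 23.2 and 14.7 kb apart.

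Rboh-like was the steadiest of the 4 tested homologs, with a ratio of 2.05 between its highest and lowest library, against 3.32 for RbohB, 3.72 for RbohC and 45.9 for RbohA. It had 16.2, 16.9 and 18.5 FPKM in CK, 14.5, 19.6 and 9.65 in M, 14.4, 19.8 and 17.2 in S, and 14.8, 15.1 and 12.3 in SM. All SM libraries lay below all CK libraries, and the other comparisons overlapped. The log2 fold change in SM against CK was -0.35 ± 0.20 (95% interval -0.79 to 0.09, adjusted p = 0.332 by edgeR), and the mean effect of melatonin over both salt states was -0.30 ± 0.14 (-0.61 to 0.01, unadjusted p = 0.059, adjusted p = 0.592). For S against CK it was -0.04 ± 0.20 (-0.48 to 0.40, adjusted p = 0.928), the closest to 0 of its 4 group comparisons.

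A single copy carried most of the Rboh-like level. MS.gene044449 (chromosome 8.1, 16075962 to 16086837) held 56.7 to 100% of it, at 12, 11.6 and 15.8 FPKM in CK, 11.4, 13.1 and 9.65 in M, 13.3, 14.3 and 12 in S, and 8.37, 13.0 and 12.2 in SM. MS.gene063494 (chromosome 8.4, 18062881 to 18075070) ranged from 0 in M replicate 3 and SM replicate 3 to 6.41 FPKM in M replicate 2. MS.gene033060, the copy on chromosome 8.3, reached at most 0.347 FPKM.

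RbohC, whose namesake in Arabidopsis acts in root hairs, was present in every leaf library through all 4 of its models. It had 9.23, 9.97 and 9.22 FPKM in CK, 7.05, 6.26 and 6.28 in M, 8.39, 18.3 and 5.32 in S, and 4.93, 14.6 and 15.7 in SM. The CK and M libraries were tight and did not overlap, M being lower, while the S and SM libraries spread over a wider range that took in both. Its log2 fold change in M against CK was -0.56 ± 0.46 (95% interval -1.58 to 0.46, unadjusted p = 0.252, adjusted p = 0.879 by edgeR). The SD of the RbohC level was 0.432 for CK and 0.449 for M, and 6.79 for S and 5.92 for SM. Fitted on the 6 CK and M libraries alone, the log2 fold change was -0.58 ± 0.19 (unadjusted p = 0.0178, adjusted p = 0.608 by edgeR). That fit is an alternative, made for every homolog and group comparison, and was not called. For RbohC its unadjusted p was 0.729 in S against CK, 0.577 in SM against CK and 0.877 in SM against S (edgeR). In S against CK and SM against S the values were 0.14 ± 0.46 (-0.88 to 1.16) and 0.10 ± 0.46 (-0.92 to 1.12), with adjusted p of 0.884 and 0.974.

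Among the RbohC copies MS.gene013213 (chromosome 3.2, 81591865 to 81598101) had the highest mean, 3.89 FPKM, followed by MS.gene049182 (chromosome 3.3, 80908870 to 80916898) with 2.60, MS.gene41626 (chromosome 3.4, 88280226 to 88286464) with 1.97 and MS.gene06299 (chromosome 3.1, 77978413 to 77984644) with 1.15. The high value of S replicate 2 came from 3 copies together, MS.gene013213 at 5.80, MS.gene049182 at 7.18 and MS.gene41626 at 4.39 FPKM. In S replicate 3 the same copies had 2.10, 2.14 and 0.311.

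RbohA had 0.184, 2.39 and 4.33 FPKM in CK, 1.41, 8.43 and 3.31 in M, 5.23, 4.68 and 7.75 in S, and 4.18, 2.02 and 3.38 in SM. All S libraries lay above all CK and all SM libraries. The log2 fold change was 1.23 ± 0.88 in S against CK (95% interval -0.71 to 3.18, adjusted p = 0.400 by edgeR), and -0.79 ± 0.87 in SM against S (-2.72 to 1.13, adjusted p = 0.847). The value in S against CK was 0.70 without CK replicate 1 and 2.02 without CK replicate 3, the extremes on leaving out each library. Its intervals were the widest of the 4 homologs, with CK replicate 1 at 33 counts and M replicate 2 at 1438. The only RbohA model to be tested was MS.gene89703 (chromosome 4.4, 5049320 to 5058071). It had 0.184, 0.750 and 0.849 FPKM in CK, 0.587, 3.76 and 0.0809 in M, 1.86, 1.73 and 0.461 in S, and 1.61, 1.58 and 1.70 in SM. Its log2 fold change in SM against CK was 1.46 ± 1.08 (adjusted p = 0.662 by edgeR). The 3 other copies on chromosome 4 had means of 0.649 to 0.897 FPKM. On chromosomes 3 and 6 MS.gene014845 and MS.gene52879 were at 0 throughout, MS.gene072881 reached 0.483 FPKM and MS.gene85855 1.23 FPKM.

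**Figure D4:**
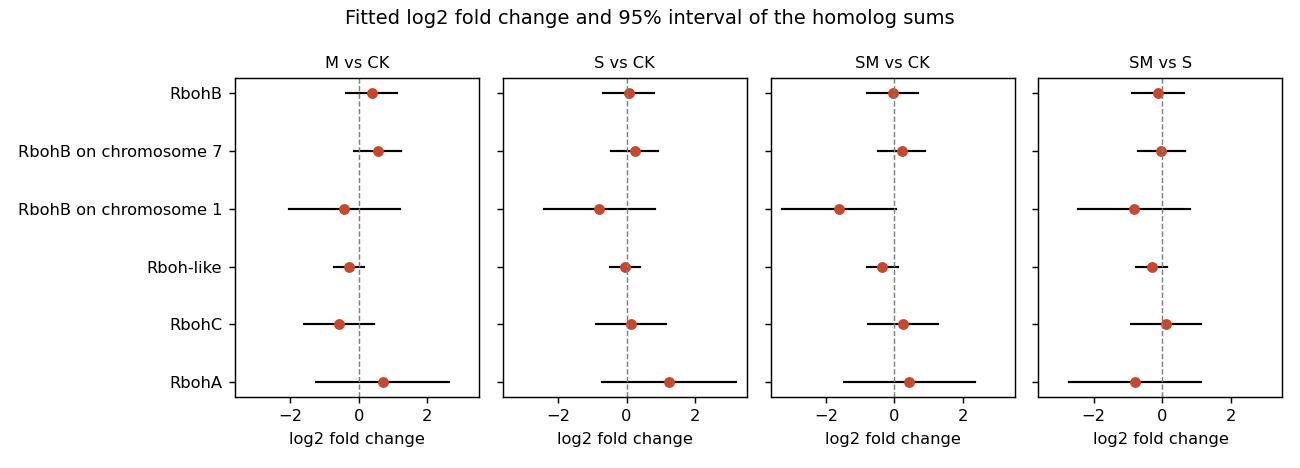
Fitted log2 fold change (points) and its 95% interval (lines) for the 4 tested homologs and for RbohB on chromosomes 7 and 1 apart, in M against CK, S against CK, SM against CK and SM against S. Every interval includes 0, with RbohB on chromosome 1 in SM against CK the closest to excluding it at -3.29 to 0.03.

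Groups that do not overlap were counted for each comparison. In each of the 4 comparisons 1 of the 4 tested sums had libraries that did not overlap, while this held for 12.9% of all annotation sums with M against CK, 34.5% with S against CK, 33.0% with SM against CK and 14.5% with SM against S. Among the 13 tested models there was no call in any contrast (edgeR), the lowest adjusted p was 0.368, and 2 of 91 tests had an unadjusted p below 0.05. Both were of MS.gene23110, in M against CK and the interaction, where 5.58 and 6.17% of all models had such a p. That model passed the filter through the libraries in which it was high, so these tests rest on the values that selected it. Of all models, 1.54% were called for S against CK, 0.342% for SM against CK, 0.0118% for M against CK, 0.0177% for SM against S and 6.40% for the mean effect of salt. It was 0.0216% for the mean effect of melatonin and 0.0275% for the interaction. The comparisons of M, S and SM with CK share their control libraries.

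RbohD, which in Arabidopsis makes the burst of leaves under attack, was detected almost only in CK. Its 7 models together had 12, 294 and 145 counts in CK, 0 in every M and S library, and 0, 0 and 2 in SM. In FPKM the CK values were 0.0634, 1.69 and 0.842. The reads came from MS.gene06300 (chromosome 3.1, 77958497 to 77963601), with 0, 150 and 78 counts in CK, and MS.gene013214 (chromosome 3.2, 81576331 to 81585392), with 0, 139 and 67, each at 0 in every other group, and from a few reads of MS.gene41625. Against the floor of 3 counts per library, the CK mean of RbohD was at least 49.7-fold higher than M, at least 51.2-fold higher than S and at least 48.6-fold higher than SM. Without CK replicate 2 these bounds were 26.2, 26.99 and 25.6. At these counts RbohD lies below the filter of 1 FPKM. Without a filter, its adjusted p was 0.039 in S against CK, 0.542 in M against CK and 0.0919 in SM against CK (edgeR), in a table where 6.86, 0 and 3.87% of annotation sums were called. The call in S against CK was lost when CK replicate 2 (0.138), CK replicate 3 (0.0959), S replicate 1 (0.0799), S replicate 2 (0.0742), S replicate 3 (0.0967) or SM replicate 3 (0.0528) was left out, and was kept without each of the other 6 libraries. CK replicate 1 was itself close to the libraries without reads, and RbohC beside RbohD on the same chromosome had 9.23 FPKM there, within the range of the other CK libraries.

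RbohE and RbohH were close to absent. RbohE had 2.04 FPKM and 372 counts in M replicate 1, spread over all 4 of its copies, and between 0 and 0.176 FPKM elsewhere, including 0.0222 and 0.0220 in the other M libraries. RbohH, whose namesake acts in pollen, had 12 counts in M replicate 2 and none in any other library. Without a filter neither was called in any contrast by edgeR.

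The tissue markers were those of leaf. Models of the small subunit of Rubisco and of chlorophyll a-b binding proteins, 101 in number, summed to between 7148 and 48118 FPKM, and were higher with salt (27359 to 48118) than without it (7148 to 23713). Of 43 leghemoglobin models 42 were at 0 everywhere and of 35 Casparian strip models 25 were, the rest summing to at most 1.31 FPKM. The 6 models of guard cell genes summed to between 0.653 and 1.82 FPKM. The 48 models of pathogenesis-related protein 1 summed to between 85.9 and 413 FPKM without salt and between 16.6 and 28.5 with salt. The part of these shifts in the values of the oxidases and their regulators was not tested.

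Calls among the regulators of the oxidases and the enzymes beside them were counted beside those of all models. In 10 lists of regulators and related enzymes, 309 models were tested, and for the mean effect of salt 7 of them rose and 14 fell (edgeR, adjusted p below 0.05), beside 3.34% of all models that rose and 3.06% that fell. DESeq2 called 75 of the 309, where it called 16.4% of all models. In S against CK alone 1 rose and 2 fell, beside 0.997% and 0.542% of all models, and DESeq2 called 43, where it called 10.6% of all models. In M against CK, SM against S, the mean effect of melatonin and the interaction no model of these lists was called by edgeR. In these contrasts 21, 19, 21 and 26 of the 309 had an unadjusted p below 0.05, beside 5.58, 5.76, 6.06 and 6.17% of all models. DESeq2 called 10, 4, 9 and 10 of the 309, beside 1.68, 1.60, 1.80 and 1.89% of all models. Of the models named below, the call for the mean effect of salt held without each of the 12 libraries in turn for MS.gene50368, MS.gene017187, MS.gene06712, MS.gene85961, MS.gene85962, MS.gene067474, MS.gene004037, MS.gene71901, MS.gene03709 and MS.gene011492. For the others the libraries whose removal ended it are given. A list of MAP kinases 3 and 6 matched no description.

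Calcium-dependent protein kinases, which phosphorylate Rboh proteins, had 56 tested models of 130, of which 6 fell and none rose with salt, with a median log2 fold change of -0.79 against 0.03 over all models. Their summed level was 541 to 951 FPKM without salt and 358 to 505 with it. MS.gene50368, described as kinase 2, had 16.2 to 74.3 FPKM without salt and 4.79 to 13.4 with salt (log2 fold change -1.73 ± 0.32, adjusted p = 0.0142 by edgeR). MS.gene017187, another model of kinase 2, had 5.02 to 18.8 and 0.886 to 5.86. MS.gene017915 (kinase 32) and MS.gene033174 (kinase 30) had log2 fold changes of -0.90 ± 0.19 and -0.95 ± 0.22. The most abundant, MS.gene65384 (kinase 26), had 29.4 to 36.5 FPKM without salt and 12.3 to 34.6 with it, and was not called (adjusted p = 0.0939). The call of MS.gene017915 was lost without CK replicate 3, M replicate 1, SM replicate 1 or SM replicate 3 (highest adjusted p = 0.0595), and that of MS.gene033174 without CK replicates 2 or 3, S replicates 2 or 3, or SM replicates 1 or 2 (highest 0.0742). The list's count lay between 2, without CK replicate 3, and 7, without CK replicate 1 or S replicate 1, and DESeq2 made 17 calls, where it called 16.4% of all models. Summed by annotation, 5 of 11 kinases fell and 1 rose for the mean effect of salt, and 4 of 11 fell in S against CK, beside 22.8 and 12.2% of all annotation sums called in either direction.

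Calcineurin B-like proteins are calcium sensors, and the CBL-interacting kinases they bind are their effectors. Of 27 tested calcineurin B-like models 2 fell with salt, both described as calcineurin B-like protein 7. MS.gene06712 had 0.532 to 4.67 FPKM without salt and 0 in every salt library but SM replicate 2 (0.0499), and MS.gene06931 had 1.56 to 10.2 without salt and 0 in every salt library but SM replicate 3 (0.842). Both models passed the filter through the libraries without salt, so a difference between groups was built into their selection. The call of MS.gene06931 was kept only without an SM library (highest adjusted p = 0.0705 without the others). The most abundant model, MS.gene020832 (calcineurin B-like protein 3), was at 0 in S replicate 2 and SM replicate 2 and between 10.02 and 48.6 FPKM elsewhere.

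Of 73 tested CBL-interacting kinases 3 fell (4.11%) and 2 rose (2.74%) for the mean effect of salt. These shares are near the 3.06% of all models that fell and the 3.34% that rose. MS.gene85961 (kinase 5), the most abundant, had 192 to 349 FPKM without salt and 66.7 to 114 with it (log2 fold change -1.64 ± 0.23, adjusted p = 0.00492 by edgeR). Its neighbour MS.gene85962 had 101 to 185 and 33.7 to 63.3, and was called in S against CK and SM against CK as well (adjusted p = 0.040 and 0.0474). The first of these calls was kept only without M replicate 2 or 3, and the second only without M replicate 2 or 3 or S replicate 3. MS.gene067474, a copy of kinase 5, had 105 to 264 and 56.2 to 97.9. MS.gene07410 (kinase 4) rose, from 0.155 to 1.82 FPKM without salt to 2.25 to 7.58 with it, a call kept only without CK replicate 1 or 2 (highest adjusted p = 0.0958). That model passed the filter through the libraries with salt, so a difference between groups was built into its selection.

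**Figure D5:**
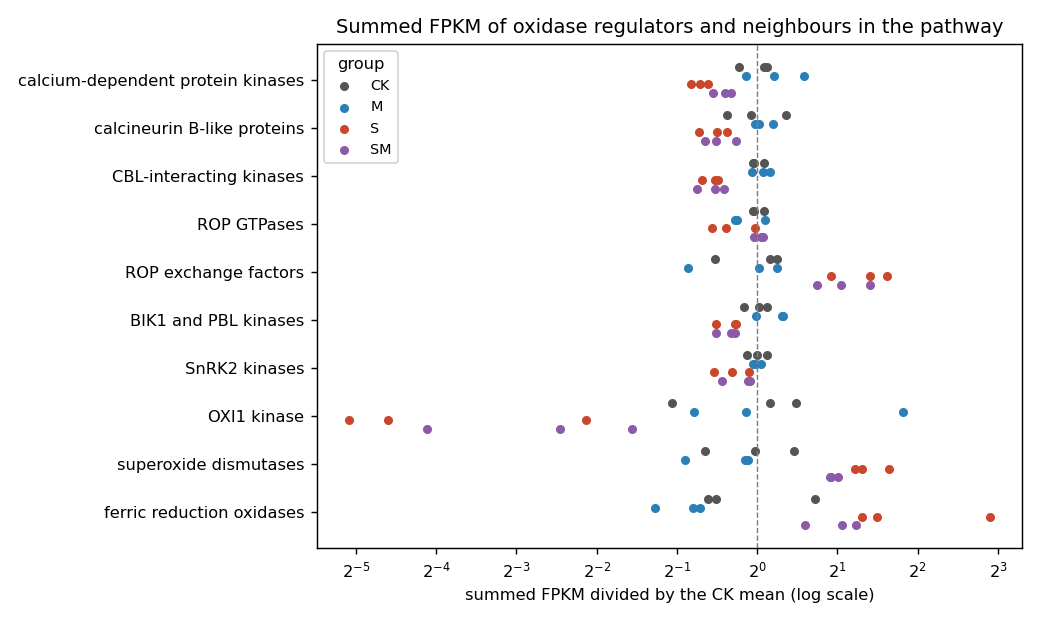
Summed FPKM of each regulator list in each library, divided by the mean of its CK libraries (horizontal log axis), with a colour for each group. Libraries of S and SM lie below 1 for both kinds of calcium kinase, calcineurin B-like proteins, BIK1 and PBL kinases, SnRK2 kinases and OXI1. They lie above 1 for ROP exchange factors, superoxide dismutases and ferric reduction oxidases, and on both sides of it for ROP GTPases.

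Of the other activators, 14 ROP GTPase models and 4 exchange factors were tested, and none was called by edgeR in S against CK or for the mean effect of salt. Without M replicate 2, 1 ROP GTPase was called in both contrasts, and without SM replicate 1, 1 exchange factor was called for the mean effect of salt, where DESeq2 called 3 of each list. In S against CK DESeq2 called 1 ROP GTPase and no exchange factor. As annotation sums, 1 of 3 ROP GTPases fell and 1 of 2 exchange factors rose in both contrasts. Of all annotation sums 12.2% were called in S against CK and 22.8% for the mean effect of salt, in either direction. The most abundant GTPase, MS.gene012136 (RHO1), had 11.2 to 83.8 FPKM over all libraries. The exchange factors summed to 10.3 to 22.3 FPKM without salt and 31.5 to 57.3 with it. MS.gene83443 (exchange factor 14) had 5.36 to 15 and 14.3 to 30.9 (adjusted p = 0.0746 for the mean effect of salt by edgeR). Among 73 kinases of the BIK1 and PBL kind 1 fell for the mean effect of salt (1.37%, below the 3.06% of all models). It was MS.gene004037 (PBL10), with 36.4 to 73.1 FPKM without salt and 6.32 to 32.4 with it. Its call in S against CK had an adjusted p of 0.0275 (edgeR), lost without CK replicates 2 or 3 or S replicates 2 or 3 (highest 0.0842). Leaving out S replicate 1 raised that list's count for the mean effect of salt to 6. Of 25 SnRK2 models 1 fell (4.0%, near the 3.06% of all models). It was MS.gene010399 (SRK2I), with 5.49 to 27.1 and 2.88 to 7.17 FPKM, a call that was lost without S replicate 3 or SM replicate 2 (highest adjusted p = 0.0522). MS.gene026409, described as SRK2E, the name of the Arabidopsis kinase that closes stomata, had 18.3 to 148 FPKM over all libraries and an adjusted p of 0.956.

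Downstream, OXI1 is a kinase that hydrogen peroxide activates in Arabidopsis. Its 8 models summed to 32.9, 14.1 and 41.0 FPKM in CK, 26.7, 103 and 17.0 in M, 6.70, 0.864 and 1.21 in S, and 5.36, 1.70 and 9.93 in SM. Libraries with salt were lower than all libraries without it. Of 5 tested models 1 fell with salt, MS.gene027345 (log2 fold change -3.47 ± 0.80, adjusted p = 0.0332 by edgeR), and this call was kept only without CK replicate 2, M replicate 3 or SM replicate 1 (highest adjusted p = 0.0776). Superoxide dismutases turn superoxide into hydrogen peroxide. Their list, which also holds models of their copper chaperone, summed to 161 to 413 FPKM without salt and 563 to 939 with it, and 4 of 29 models rose. They were a pair of chloroplast Cu-Zn enzymes, MS.gene03709 with 8.28 to 39.9 and 70.6 to 231 FPKM and MS.gene09134 with 0 to 0.957 and 0.0786 to 45.3, and a pair of models of their copper chaperone, which is no dismutase itself. Of these MS.gene71901 had 5.15 to 12 and 38.4 to 57.2 FPKM (log2 fold change 2.64 ± 0.20) and MS.gene011492 2.25 to 5.49 and 8.05 to 24.1. The call of MS.gene09134 was kept only without CK replicate 1 or S replicate 2 (highest adjusted p = 0.110). MS.gene09134 passed the filter through libraries with salt, so a difference between groups was built into its selection. Ferric reduction oxidases, membrane proteins of the same superfamily as Rboh, had 3 tested models of 20, of which MS.gene003207 (ferric reduction oxidase 7) rose from 0.0942 to 0.843 FPKM to 1.26 to 14.6, a call lost without CK replicate 2, any M library, S replicate 3 or SM replicate 1 (highest adjusted p = 0.0616). MS.gene003207 also passed the filter through libraries with salt, with the same limit. As annotation sums, the remaining lists had these calls for the mean effect of salt: 2 of 7 calcineurin B-like proteins fell, 4 of 18 CBL-interacting kinases fell and 1 rose, and 3 of 17 BIK1 and PBL kinases, 3 of 6 SnRK2 kinases and the OXI1 sum fell. In the superoxide dismutase list, with the copper chaperone among its sums, 5 of 9 rose, as did 1 of 3 ferric reduction oxidases. Beside these, 22.8% of all annotation sums were called in either direction, a share that several of these lists are near.

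The annotations with the pattern most like that of RbohB were sought by Pearson's correlation of log2(FPKM + 1) over the 12 libraries among 15402 annotation sums. They were WAT1-related protein At4g19185 isoform X1 (r = 0.94), the hypothetical protein MTR_1338s0010 (0.92) and a putative transcription factor of the SBP family (0.89). For Rboh-like they were the putative F-box/LRR-repeat protein At3g18150 (0.90), the probable magnesium transporter NIPA4 (0.88) and subunit 3B of a dolichyl-diphosphooligosaccharide--protein glycosyltransferase (0.86). Within the family the likeness was lower, with r of 0.16 to 0.34 between RbohB and the other tested homologs. These values are the highest of many, share the same libraries and depth, and are given as a description.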

How the data were processed

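Leaf RNA of 12 alfalfa libraries was sequenced on an Illumina NovaSeq. The authors trimmed reads with Cutadapt, mapped them with HISAT2 2.0.4 and assembled and quantified transcripts with StringTie, gffcompare and Ballgown. The genome build is not given in the sources used here. The authors deposited, for each gene model and library, an FPKM value and an estimated count in whole numbers. An FPKM of 0.0001 stands for no reads and was read as 0. The deposited estimated counts summed to 45862158 to 57192229 per library, and Pearson's r between libraries of a group was 0.734 to 0.862. Gene models and annotation sums (counts of all models with the same description added, members merged by homolog) with a mean FPKM of at least 1 were tested with edgeR 4.0.16 in R 4.3.3, by quasi-likelihood with TMM factors in 1 fit over the 12 libraries with group as the term, and p-values were adjusted over all rows tested in a contrast. The SE is the absolute log2 fold change divided by the square root of F, and 95% intervals use its t quantile. Where libraries had 3 counts or fewer, folds were bounded by a floor of 3 counts per library, which covers counting error only. With 3 libraries against 3, an exact permutation test cannot go below 0.10, and none was used. DESeq2 1.42.0 and limma 3.58.1 served in alternatives, besides other size factors, no filter, the 6 libraries of a comparison, a replicate block, log2(FPKM + 1) and log2(FPKM + 0.1), leaving out each library, and for the lists the study's thresholds (fold above 2 or below 0.5, unadjusted p below 0.05). The procedure was tested on simulated counts with the same spread between replicates in every row. That does not show how it performs on genes whose libraries vary more. Named were each homolog, each member with a mean FPKM of at least 1 and those the study's pathway table lists, and of each list up to 4 called models by lowest p and the most abundant. Members and lists were chosen with earlier results of these data known.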

Additional observations from a re-analysis of the deposited data

How the results depend on the processing

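Over 28 results of the homolog sums, 562 alternative fits were made, of which 518 kept the direction and the side of the threshold. None had an adjusted p below 0.05 (lowest 0.128), and 44 changed sign in 15 results, most of them close to 0. In the settings that keep all libraries, the log2 fold change of Rboh-like in the interaction became 0.0098 on log2(FPKM + 1) and 0.014 on log2(FPKM + 0.1), that of RbohA for the mean effect of melatonin 0.0038 and 0.19, that of RbohB in S against CK -0.00077 and -0.0032, and that of RbohC in S against CK -0.015 on log2(FPKM + 0.1). With the replicate number as a block, the Rboh-like interaction was 0.0042 and the RbohA mean melatonin effect 0.087. No sign was seen that the numbers pair the libraries: deviations of same-numbered libraries correlated at -0.082 to 0.045 and those of other pairs at -0.067 to 0.068. With 3 libraries a group this check cannot exclude a pairing. The block changed no call of a homolog or member. RbohB on chromosome 1 alone gave -0.42 in M against CK, -0.79 in S against CK and -0.63 for mean melatonin, and chromosome 7 alone 0.21 in SM against CK, each opposite in sign to the RbohB sum. DESeq2 called 1 member model, MS.gene23110, in M against CK, S against CK, SM against S and the interaction, and the cause was not tested. Leaving out each library in turn gave Rboh-like -0.16 to 0.069 in S against CK, -0.20 to 0.18 in the interaction and -0.12 to 0.075 for mean salt. RbohA ranged from -0.44 to 1.48 in M against CK, 0.70 to 2.02 in S against CK, -0.10 to 1.22 in SM against CK and -0.62 to 0.34 for mean melatonin. RbohB ranged from -0.14 to 0.34 in S against CK, -0.18 to 0.15 in SM against CK, -0.40 to 0.082 in SM against S and -0.021 to 0.23 for mean melatonin. RbohC ranged from -0.51 to 0.46 in S against CK, -0.026 to 0.60 in SM against CK, -0.22 to 0.75 in SM against S and -0.39 to 0.095 for mean melatonin. The adjusted p of RbohD without a filter ranged from 0.034 to 0.138 in S against CK. Low counts limit what can be said of RbohD and RbohH, whose counts are at or under 3 in 9 and 11 of 12 libraries, and of RbohE, where this holds for 6.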

Other observations

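The KEGG ortholog number of the family is also carried by 12 models outside the 39 members, and 8 of these share the description putative NAD(P)H oxidase (H(2)O(2)-forming). They were looked at after their values were seen and are not members by the rule. Their summed level was 18.3, 30.3 and 24.4 FPKM in CK, 23.1, 15.97 and 9.14 in M, 53.2, 41.2 and 59.1 in S, and 31.7, 29.8 and 30.7 in SM. All S libraries lay above all libraries of the other groups. The mean effect of salt on the sum was a log2 fold change of 0.97 ± 0.21 (95% interval 0.51 to 1.44, adjusted p = 0.00782 by edgeR, where 22.8% of annotation sums were called), and it stayed called in all 20 settings run. In S against CK alone the value was 1.01 ± 0.30 with an adjusted p of 0.0508, and it was called in 9 of 21 settings (adjusted p from 0.0096 to 0.154). In SM against S the SM libraries were all lower (log2 fold change -0.59 ± 0.30, adjusted p = 0.600). All 6 tested models of this description had a higher fitted level with salt, and 1 of them was called (adjusted p = 0.0485 by edgeR). Of all models 6.40% were called for the mean effect of salt, 3.34% as higher. Models with the same description may share reads, so their directions cannot be taken as independent. The chlorophyll-binding and Rubisco models also had a higher summed level with salt, as given above, and their part in this result was not tested.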
